A study of Mus musculus with 2 samples.

Results

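The genes described here are 10 members of the fibroblast growth factor (FGF) pathway, followed through marker-gated cell classes of the embryonic mouse eye region. They were chosen by name, with earlier results of these data known. All 10 were found among the 27998 genes counted in both libraries. They comprise the ligands *Fgf8*, *Fgf9* and *Fgf15*, the receptor *Fgfr2*, and the response genes *Spry1*, *Spry2*, *Spry4*, *Etv4*, *Etv5* and *Dusp6*. None of them was used to gate cells.

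FGF ligands are secreted proteins that bind receptor tyrosine kinases together with heparan sulfate and activate the Ras-MAPK cascade. In the developing eye, FGFs of the optic vesicle favour neural retina over retinal pigment epithelium, and FGF receptor signalling in the overlying ectoderm is needed for lens induction. The transcription factors *Etv4* and *Etv5* and the feedback inhibitors of the Sprouty and Dusp families are commonly read as transcriptional responses to that cascade.

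Single cells of the ocular area were profiled with 10x Chromium 3′ chemistry in 26-somite (E9.25) C57BL/6J embryos. One library came from a wild-type embryo (WT) and one from a *Mab21l1*-null embryo (KO), each a pair of optic areas from 1 embryo, so that genotype, embryo and library cannot be told apart. The null mutation was not restricted to a tissue. With 1 library per genotype no test could be made, and all 95% intervals below cover counting error only.

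After filtering, 1680 WT and 2404 KO cells remained, with medians of 21037 and 18135 UMIs per cell. The libraries shared 15 barcode sequences. The targeted gene did not separate the libraries as their labels would: *Mab21l1* was counted at 47.3 CPM (UMIs per 1000000 UMIs of a class) in WT and 82.8 CPM in KO retina-like cells, while lens placode-like cells had 124 and 75.4 CPM. Over the 12 cell classes described next it was higher in KO in 9, RPE-like (23.2 and 31.6 CPM), ventral optic vesicle-like (24.02 and 34.6 CPM), other neural (36.4 and 50.2 CPM) and endothelium-like cells (0.566 and 5.28 CPM) among them, and in the first 3 of these and in retina-like cells the intervals did not overlap. A UMI at the 3′ end does not show whether a transcript is functional, and whether the labels were exchanged cannot be told from these counts. WT and KO therefore stand for the libraries so labelled throughout, and an exchange would invert each ratio of KO over WT given below.

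Cells were placed in 12 classes by the number of marker genes they carried, and 3668 of 4084 cells fell in 1 class. In the order WT and KO, the classes held 28 and 13 lens placode-like (LP-like) cells, 22 and 23 other surface ectoderm-like (SE-like) cells, 120 and 284 retina-like cells, 249 and 293 RPE-like cells and 153 and 257 ventral optic vesicle-like cells. Forebrain-like cells numbered 101 and 106, other neural cells 206 and 250, mesenchyme-like cells 485 and 761 and endothelium-like cells 62 and 94. The remaining 3 classes were 36 and 50 erythroid-like, 26 and 25 neural crest-like, and 17 and 7 macrophage-like cells. The other neural class is a remainder that passed no subtype gate. The neural classes are ranges of a continuum: 227 WT and 376 KO cells lay exactly at the retina gate of 4 markers, and 315 and 349 lay 1 marker below it. The mesenchyme gate was sharper, with 19 WT and 32 KO cells at its limit of 5 markers. Of the defining markers, *Foxe3* was at 0 in LP-like cells, and *Barhl2* and *Nkx2-1* were at 0 in forebrain-like cells, of both libraries. In bulk sums of a class, fewer expressing cells and less RNA per cell cannot be told apart except through the shares of cells with a UMI.

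*Fgf15*, which encodes the mouse counterpart of human FGF19, was carried above all by retina-like cells. Its level there was 237 CPM (95% interval 221 to 253, 867 UMIs) in WT and 200.04 CPM (191 to 210, 1654 UMIs) in KO. RPE-like cells, the other fate of the optic vesicle, had 21.7 CPM (18.6 to 25.2) and 14.5 CPM (11.99 to 17.3). The retina-like level was thus 10.9 times the RPE-like level in WT (9.27 to 12.9) and 13.8 times in KO (11.5 to 16.8), and the classes were apart in both libraries. The other neural class followed the retina-like cells with 104 and 97.6 CPM, then ventral optic vesicle-like cells with 72.1 and 73.0 CPM, and forebrain-like cells with 47.0 and 26.1 CPM. This order was the same in both libraries. Outside neural tissue *Fgf15* reached at most 9.29 CPM, on 2 UMIs in KO macrophage-like cells.

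*Fgf9*, whose product is a known promoter of neural retina fate, peaked in the same class. Retina-like cells had 30.3 CPM (25.0 to 36.5) in WT and 28.8 CPM (25.2 to 32.7) in KO. RPE-like cells had 2.59 and 2.43 CPM, an excess of the retina-like level by 11.7 times (7.30 to 19.7) and 11.8 times (7.49 to 19.7). Ventral optic vesicle-like cells were the class nearest to the retina-like cells, with 15.7 CPM in WT and 26.5 CPM in KO. In KO the intervals of these 2 classes overlapped, and in WT they did not.

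*Fgf8*, a ligand known from the anterior neural ridge and optic stalk, was shared by several neural classes. Retina-like cells had 14.8 CPM (11.1 to 19.3) in WT and 16.9 CPM (14.2 to 19.98) in KO, ventral optic vesicle-like cells 8.64 CPM (5.91 to 12.2) and 18.2 CPM (14.8 to 22.1), and the other neural class 9.48 CPM (6.91 to 12.7) and 20.2 CPM (16.5 to 24.4). The retina-like class was highest in WT and the other neural class in KO, but the intervals of these 3 classes overlapped in both libraries. RPE-like cells were low again, with 1.97 and 1.83 CPM. No UMI of *Fgf8* was found in LP-like or SE-like cells of either library, where the floor of 3 counts used for a count of 0 is 5.54 and 12.6 CPM (LP-like, WT and KO) and 7.87 and 8.88 CPM (SE-like). The upper ends of the two-sided exact intervals are wider, at 6.82 and 15.4 CPM (LP-like) and 9.67 and 10.9 CPM (SE-like).

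**Figure D1:**
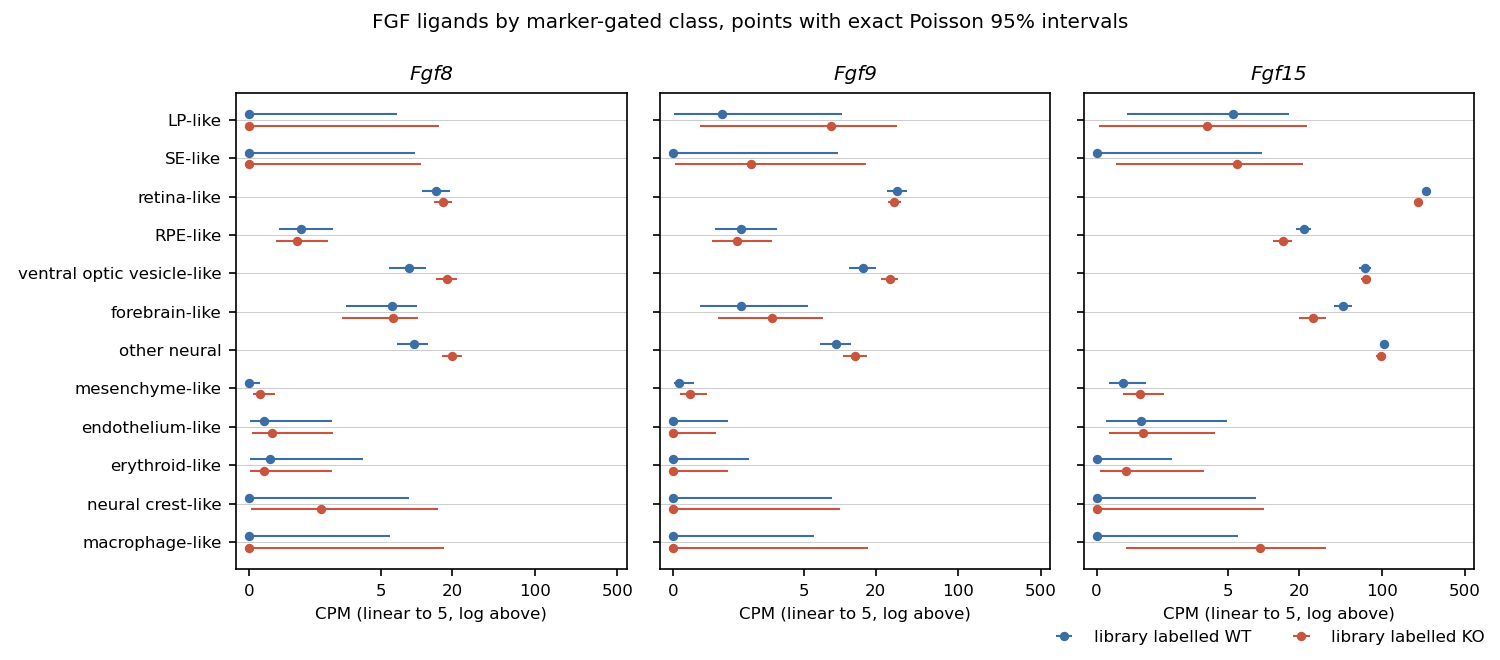
Levels of *Fgf8*, *Fgf9* and *Fgf15* in CPM (linear up to 5, logarithmic above) in each class, with 1 point per library (blue, labelled WT; red, labelled KO) and its exact Poisson 95% interval. The 3 ligands were high in the retina-like, ventral optic vesicle-like and other neural classes and low in RPE-like cells, and the intervals of *Fgf8* in the ventral optic vesicle-like and other neural classes did not overlap between libraries.

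The share of cells with a ligand UMI was highest in retina-like cells for each ligand and library. *Fgf15* was detected in 95.8% of WT (90.5 to 98.6) and 90.5% of KO retina-like cells (86.5 to 93.6), *Fgf9* in 47.5% and 48.6%, and *Fgf8* in 25% and 24.6%. For *Fgf8* in KO the share went against the CPM, since the ventral optic vesicle-like (14.8%) and other neural classes (16.4%) lay below the retina-like class by share and above it by CPM, and no order of these 3 classes is read there. Thinned to 10000 UMIs per cell, these shares were 81.6% and 73.9% for *Fgf15*, 31.6% and 25.4% for *Fgf9* and 11.4% and 11.1% for *Fgf8*, leaving out 6 WT and 4 KO cells that were shallower. Erythroid-like cells, which should lack the ligands and were deeper (medians of 32480.5 and 33458 UMIs, against 27848 and 24584.5 in retina-like and 28607 and 24363 in RPE-like cells), carried a *Fgf15* UMI in 0 of 36 and 2 of 50 cells, a *Fgf9* UMI in none, and a *Fgf8* UMI in 1 cell of each library. By the floor of 3 counts the 0 of 36 cells allow a share of up to 8.33%, which is not the limit of an exact interval. The RPE-like shares of *Fgf8*, 4.82% and 3.07%, were not separable from the erythroid-like shares of 2.78% and 2%, whose intervals (0.0703 to 14.5 and 0.0506 to 10.6) rest on 1 cell each and are so wide that the WT ventral optic vesicle-like share of 11.1% falls inside too. By CPM the WT ventral optic vesicle-like level of *Fgf8*, 8.64 CPM (5.91 to 12.2), stood above the erythroid-like level of 0.78 CPM (0.0198 to 4.35), while the interval of the RPE-like level, 1.97 CPM (1.13 to 3.21), overlapped it.

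**Figure D2:**
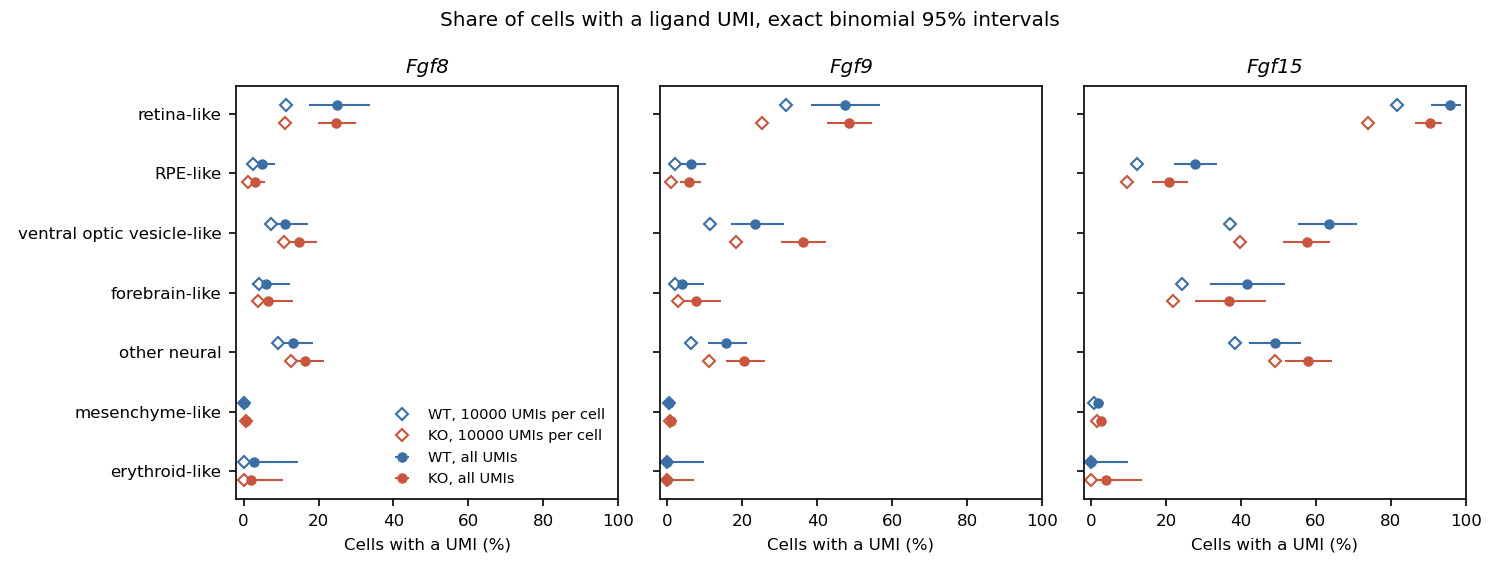
Percent of cells with at least 1 UMI of each ligand by class and library, with exact binomial 95% intervals (filled circles, all UMIs) and after thinning to 10000 UMIs per cell (open diamonds). *Fgf15* was detected in most retina-like cells of both libraries, *Fgf9* in 47.5% and 48.6%, and all 3 ligands in few mesenchyme-like and erythroid-like cells.

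Within the retina-like class the ligands were distributed differently along the axis marked by *Vax2*, a transcription factor of the ventral retina. Cells with a *Vax2* UMI numbered 64 in WT and 171 in KO. In WT, *Fgf9* was at 37.3 CPM in cells with and 19.9 CPM in cells without a *Vax2* UMI, a ratio of 1.88 (1.22 to 2.98). In KO the levels were 28.6 and 29.2 CPM, with a ratio of 0.98 (0.74 to 1.30). *Fgf15* was lower in the cells with *Vax2* in both libraries, at 205 against 285 CPM in WT (0.72, 0.63 to 0.82) and 164 against 275 CPM in KO (0.59, 0.54 to 0.66). *Fgf8* was also lower with *Vax2*, by a ratio of 0.72 in WT (0.40 to 1.27) and 0.50 in KO (0.35 to 0.71), of which the WT interval includes 1. Cells with a *Vax2* UMI were deeper, with medians of 31747.5 and 28694 UMIs, and the part of depth in these ratios was not tested.

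Between libraries, a gene was called higher or lower where its CPM ratio (KO over WT) was at least 1.5 or at most the inverse of 1.5, with at least 20 UMIs over both libraries in the class. The shares of all genes called, given beside the members, are over genes with that minimum. They were not matched for UMI number, and genes with few UMIs pass the fold more readily by counting error. In ventral optic vesicle-like cells 8 members reached that minimum, of which 3 were higher and 1 lower, where 5.1% of 10645 genes were higher and 4.28% lower. *Fgf8* was higher, with 32 UMIs (8.64 CPM) in WT and 101 UMIs (18.2 CPM) in KO, a ratio of 2.11 (1.40 to 3.24). *Fgf9* was higher as well, with 58 and 147 UMIs and a ratio of 1.69 (1.24 to 2.33). *Fgf15* was level, at 72.1 and 73.0 CPM with a ratio of 1.01 (0.87 to 1.19), so the ligands of this class did not move together.

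Positive cells were not clearly more frequent for *Fgf8* in KO, and they held more UMIs. A *Fgf8* UMI was found in 11.1% of WT (6.61 to 17.2) and 14.8% of KO ventral optic vesicle-like cells (10.7 to 19.7), with 1.88 and 2.66 UMIs per positive cell. For *Fgf9* the shares were 23.5% (17.1 to 31.1) and 36.2% (30.3 to 42.4), and after thinning 11.5% and 18.4%. Without the cell richest in *Fgf8* in each library the ratio was 2.45. With 1 marker fewer at each gate the ratio of *Fgf8* was 1.31, below the fold, and with 1 marker more that of *Fgf9* was 1.498. The neural retina marker list summed to 881 and 882 CPM in this class and the forebrain list to 79.1 and 65.4 CPM, and their part in the ratios was not tested.

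In the other neural class 8 members reached the minimum, of which 2 were higher and 1 lower (background 4.75% and 3.65% of 10867 genes). *Fgf8* was higher once more, with 45 UMIs (9.48 CPM) in WT and 106 UMIs (20.2 CPM) in KO, a ratio of 2.13 (1.49 to 3.09). *Fgf9* had 9.27 and 13.5 CPM, within the fold at 1.46 (0.99 to 2.17). In retina-like cells none of the 3 ligands passed the fold: the ratios were 1.15 for *Fgf8* (0.83 to 1.60), 0.95 for *Fgf9* (0.75 to 1.20) and 0.84 for *Fgf15* (0.78 to 0.92). The class in which *Fgf8* passed the fold depended on the gate: with 1 marker more it was higher in retina-like cells (2.26), and with 1 marker fewer in forebrain-like (2.39) and RPE-like cells (1.78).

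*Fgf15* was called lower in KO in forebrain-like cells alone among neural classes. Forebrain-like cells had 127 UMIs (47.0 CPM) in WT and 62 UMIs (26.1 CPM) in KO, a ratio of 0.55 (0.40 to 0.76). There 5 members reached the minimum, 1 higher and 1 lower, against 6.58% and 4.65% of 9565 genes. In RPE-like cells the ratio of 0.667 (0.52 to 0.85), from 176 and 119 UMIs, lay just short of the call and passed it with another scaling (0.654) and with thinning (0.63). The share of forebrain-like cells with a *Fgf15* UMI was 41.6% in WT (31.9 to 51.8) and 36.8% in KO (27.6 to 46.7), so these intervals overlapped. The ratio was 0.92 with 1 marker fewer at each gate, which ends the call, and the call was also lost with thinning.

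The genes whose pattern across 10 classes and both libraries was most like that of each ligand, by Pearson correlation of log2(CPM + 10) over 20 points among 11994 genes, were *Fzd5* (0.936), *Spred3* (0.933) and *Fgf15* (0.926) for *Fgf8*. For *Fgf9* they were *Nkx6-2* (0.979), *Crhbp* (0.930) and *Abca5* (0.930), and for *Fgf15* *Rorb* (0.970), *Epha5* (0.959) and *Egfem1* (0.951). The points share libraries and class depth, and the values are descriptions.

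Of the 19 other FGF genes counted, 4 reached 20 UMIs in a class and 5 had no UMI in any gated cell. *Fgf13*, an intracellular member of the family, ranged from 39.9 to 58.7 CPM over the 5 neural classes of both libraries and was at 3.29 and 2.90 CPM in mesenchyme-like cells (WT and KO). *Fgf18*, a secreted ligand, was called lower in KO in RPE-like cells (3.58 and 1.34 CPM, 0.37, 0.17 to 0.77), and also, at 0.58, 0.61 and 0.56, in ventral optic vesicle-like, forebrain-like and other neural cells, each with an interval that includes 1. *Fgf3* was lower in retina-like cells (5.46 and 2.78 CPM, 0.51, 0.27 to 0.98). *Fgf12* was called lower there (0.48, 0.20 to 1.21) and higher in RPE-like cells (1.70, 1.01 to 2.90).

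*Fgfr2*, the receptor for several secreted FGFs, was high where the ligands were low within the optic vesicle. SE-like cells had the highest level, 136 CPM (102 to 179) in WT and 91.7 CPM (62.3 to 130) in KO, followed by LP-like cells with 64.7 CPM (45.1 to 90.0) and 71.2 CPM (41.5 to 114). The difference between SE-like and LP-like cells exceeded counting error in WT, at 2.11 times (1.35 to 3.33), and did not in KO, at 1.29 times (0.69 to 2.48). Mesenchyme-like cells came next with 36.6 and 33.9 CPM, then RPE-like cells with 28.6 and 29.0 CPM, and these neighbours differed by 1.28 times in WT (1.08 to 1.52) and 1.17 times in KO (0.99 to 1.38). Retina-like cells had only 9.02 and 6.05 CPM, and the RPE-like level was 3.17 times as high in WT (2.198 to 4.72) and 4.79 times in KO (3.52 to 6.63).

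*Fgfr2* reached the minimum in 8 classes and passed the fold in none of them. The ratio ranged from 0.67 in retina-like cells (0.42 to 1.07) to 1.10 in LP-like cells (0.58 to 2.02). In SE-like cells, 52 UMIs in WT and 31 in KO gave 0.67 (0.42 to 1.07), just inside the fold. In LP-like and SE-like cells it was the only member with 20 UMIs, where 12.9% and 11.3% of all genes were called higher and 16% and 11.8% lower. Alternatives gave calls in both directions. *Fgfr2* was called lower in retina-like cells with 1 marker more at each gate (0.41), with thinning (0.498) and without the richest cell (0.655), in SE-like cells with all barcodes (0.599) and in other neural cells with 1 marker fewer (0.652). It was called higher in LP-like cells with thinning (1.66).

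*Dusp6*, the cytoplasmic phosphatase that inactivates ERK, was highest outside the eye tissue proper. Endothelium-like cells had 75.3 CPM (63.0 to 89.2) in WT and 69.6 CPM (59.2 to 81.3) in KO, and macrophage-like cells 55.4 CPM (38.4 to 77.4) and 65.1 CPM (35.6 to 109). These 2 classes did not differ beyond counting error in either library. In KO macrophage-like cells 3 cells carried the gene, and 9 of the 14 UMIs lay in 1 of them. Without the richest cell of each library the macrophage-like ratio (KO over WT) was 0.599, called lower, against 1.17 with all cells. LP-like cells had 24.0 and 12.6 CPM on 13 and 3 UMIs, retina-like cells 13.9 and 8.95 CPM, and RPE-like cells 2.84 and 4.26 CPM. The retina-like level exceeded the RPE-like level by 4.91 times in WT (2.95 to 8.42) and 2.10 times in KO (1.39 to 3.24).

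*Etv5*, an ETS transcription factor, followed the ligands within the optic vesicle. Retina-like cells had 6.83 CPM in WT and 6.65 CPM in KO against 1.73 and 0.608 CPM in RPE-like cells, a ratio of 3.96 (1.98 to 8.23) and 10.9 (4.41 to 35.0). Its highest WT levels were in macrophage-like cells, at 34.2 CPM (21.2 to 52.3), and LP-like cells, at 25.9 CPM (14.1 to 43.4). In LP-like cells 14 UMIs were counted in WT and 3 in KO, a ratio of 0.49 (0.09 to 1.74), so no difference was detectable at this depth. SE-like cells had no *Etv5* UMI in either library.

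**Figure D3:**
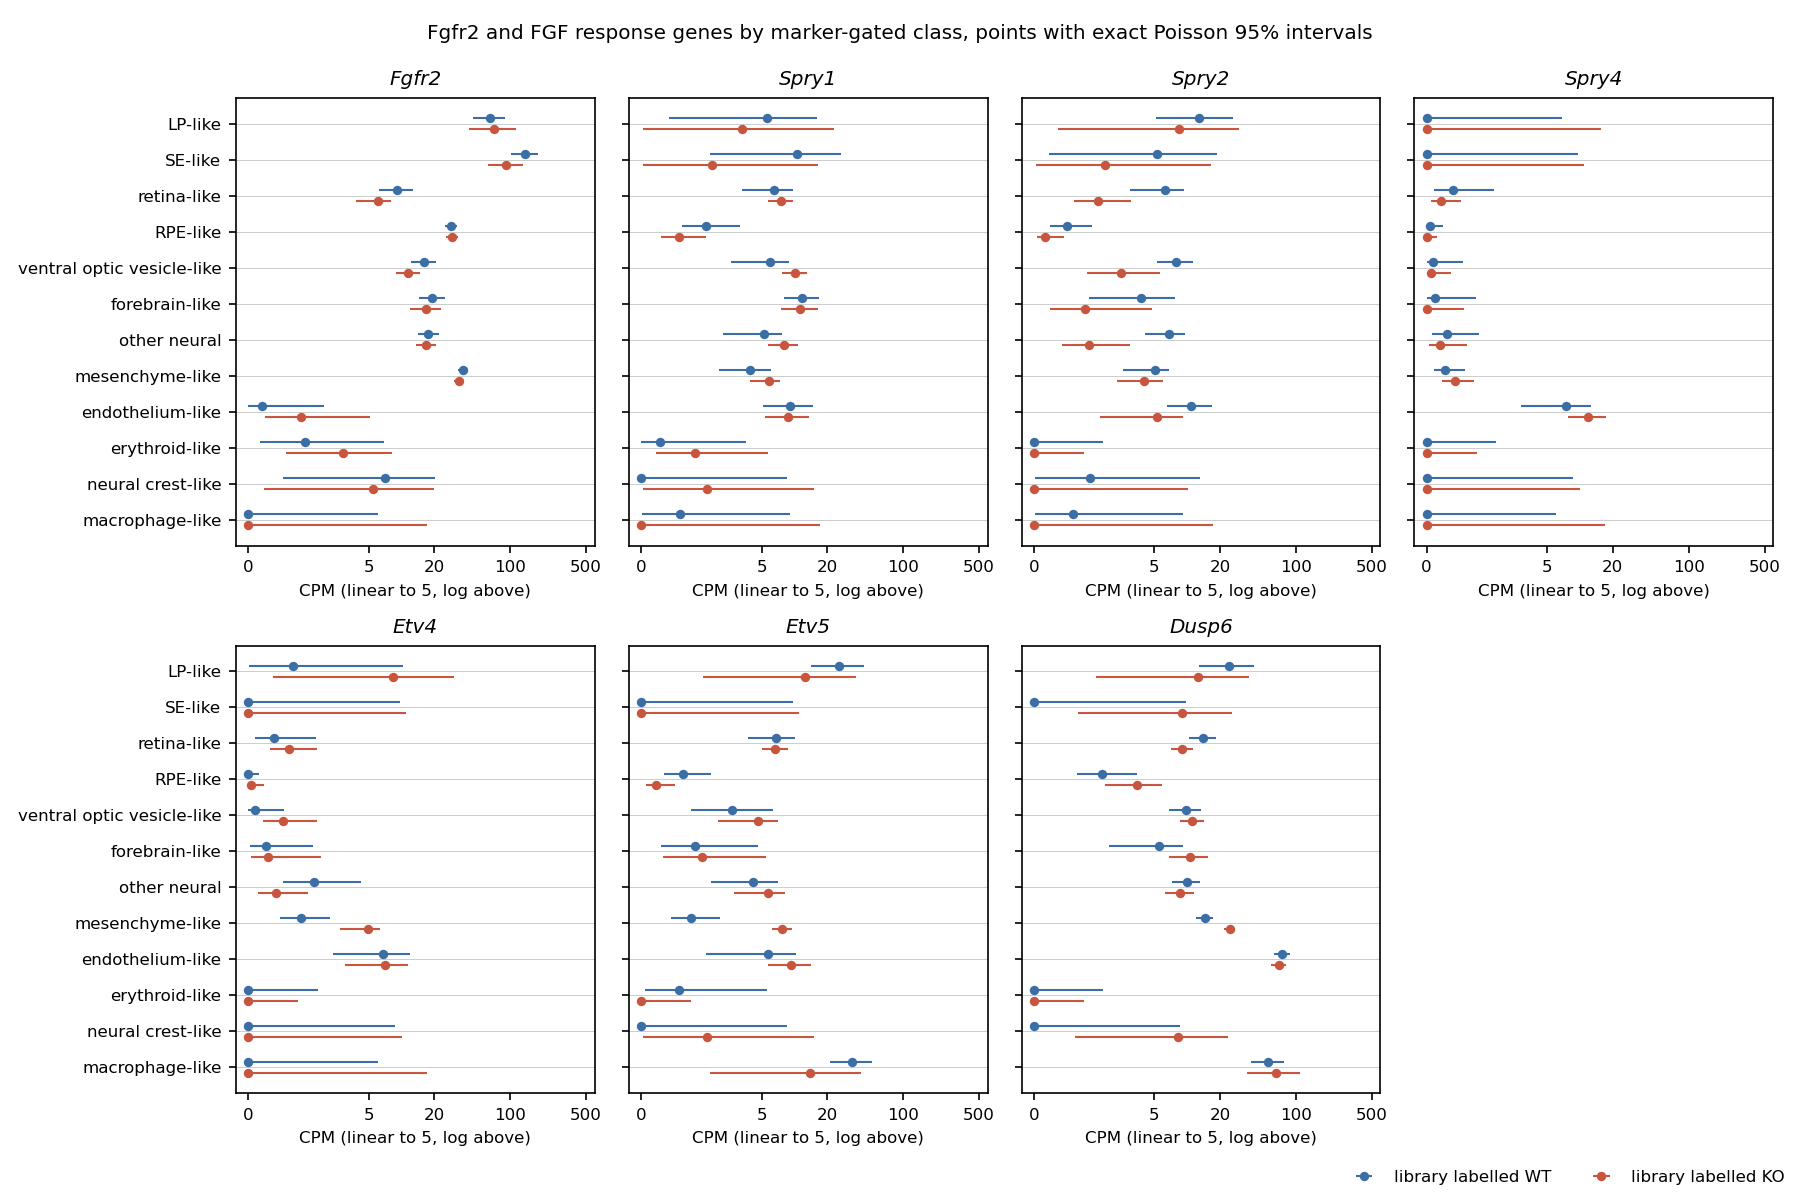
Levels of *Fgfr2*, *Spry1*, *Spry2*, *Spry4*, *Etv4*, *Etv5* and *Dusp6* in CPM (linear up to 5, logarithmic above) by class, with 1 point per library and its exact Poisson 95% interval. *Fgfr2* was highest in the ectoderm classes and low in retina-like cells, *Dusp6* was highest in endothelium-like and macrophage-like cells, and *Etv4*, *Etv5* and *Dusp6* stood higher in the library labelled KO in mesenchyme-like cells.

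*Etv4*, the closest relative of *Etv5* among the members, was sparse in neural classes. Its levels were 6.79 and 7.05 CPM in endothelium-like cells (WT and KO) and 2.196 and 4.97 CPM in mesenchyme-like cells, and no neural class exceeded 2.74 CPM. *Spry4*, a Sprouty inhibitor of the Ras-MAPK cascade, was counted mainly in endothelium-like cells, with 7.36 CPM (3.92 to 12.6) and 11.9 CPM (7.84 to 17.3). That was 9.57 times (3.55 to 28.3) and 10.3 times (5.19 to 21.2) the mesenchyme-like level. *Spry1* was spread more evenly, highest in forebrain-like cells at 11.9 and 11.4 CPM and lowest among neural classes in RPE-like cells at 2.71 and 1.58 CPM.

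The patterns most like *Dusp6* were those of *Gm266* (0.946), *Rab12* (0.931) and *Fam102b* (0.928). For *Etv5* they were *Dusp4* (0.805), another MAPK phosphatase, *Mcts1* (0.790) and *Tgfb2* (0.779), and for *Spry1* they included *Enox2* (0.819) and *Brms1* (0.805).

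Under the main setting mesenchyme-like cells held more called members than any other class, 5 against 4 in ventral optic vesicle-like cells. This rank depended on the setting. In the same order the counts were 3 and 4 with thinning, and 4 and 4 without the richest cell. Of 8 members with 20 UMIs, 5 were higher in KO and 0 lower, where 3.81% of 11697 genes were higher and 3.37% lower. Those shares were not matched for UMI number, and the calls of *Spry4* and *Fgf15* rest on few UMIs. The median log2 ratio of the 8 members was 0.67, set by *Spry4* (0.59) and *Fgf15* (0.74), and that of all genes was 0.01. *Spry1*, *Spry2* and *Fgfr2* were at 0.36, -0.15 and -0.11, so the members did not shift as a group.

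*Etv5* showed the largest ratio, with 19 UMIs (2.09 CPM) in WT and 93 UMIs (7.70 CPM) in KO, or 3.69 (2.24 to 6.40). *Etv4* had 20 UMIs (2.196 CPM) and 60 UMIs (4.97 CPM), a ratio of 2.26 (1.34 to 3.96). *Dusp6* had 132 UMIs (14.5 CPM) and 298 UMIs (24.7 CPM), a ratio of 1.70 (1.38 to 2.11). The intervals of the KO and WT levels did not overlap for any of these 3 genes. The KO UMIs were spread over many cells, with 68 cells carrying *Etv5* and no cell more than 4 UMIs, and 54 cells carrying *Etv4*.

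The other 2 calls were weak. *Spry4* had 7 and 14 UMIs, a ratio of 1.51 (0.57 to 4.41), and *Fgf15* had 9 and 20 UMIs, a ratio of 1.68 (0.73 to 4.18). A *Fgf15* UMI was found in 1.86% of WT and 2.63% of KO mesenchyme-like cells, below the 4% of KO erythroid-like cells (2 of 50), and was not separable from background. *Spry1* (4.50 and 5.80 CPM, 1.29), *Spry2* (5.05 and 4.55 CPM, 0.90) and *Fgfr2* (36.6 and 33.9 CPM, 0.93) stayed within the fold.

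*Etv4*, *Etv5* and *Dusp6* had ratios above 1 in both subsets of mesenchyme-like cells given here, though not always past the fold. The subsets were cells with UMIs of both *Foxc1* and *Foxc2*, forkhead factors of cranial mesenchyme, which numbered 302 of 485 in WT and 423 of 761 in KO, and the remaining cells. In cells with both the ratio was 3.42 for *Etv5* (1.74 to 7.33), 1.28 for *Etv4* (0.62 to 2.72) and 1.48 for *Dusp6* (1.13 to 1.93), and in cells with fewer Foxc genes it was 3.75 (1.76 to 9.18), 3.98 (1.67 to 11.5) and 2.13 (1.49 to 3.11). Endothelium markers, from cells rich in *Dusp6*, summed to 16.4 and 18.3 CPM in the class and macrophage markers to 5.93 and 5.13 CPM, and their part in the result was not tested.

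**Figure D4:**
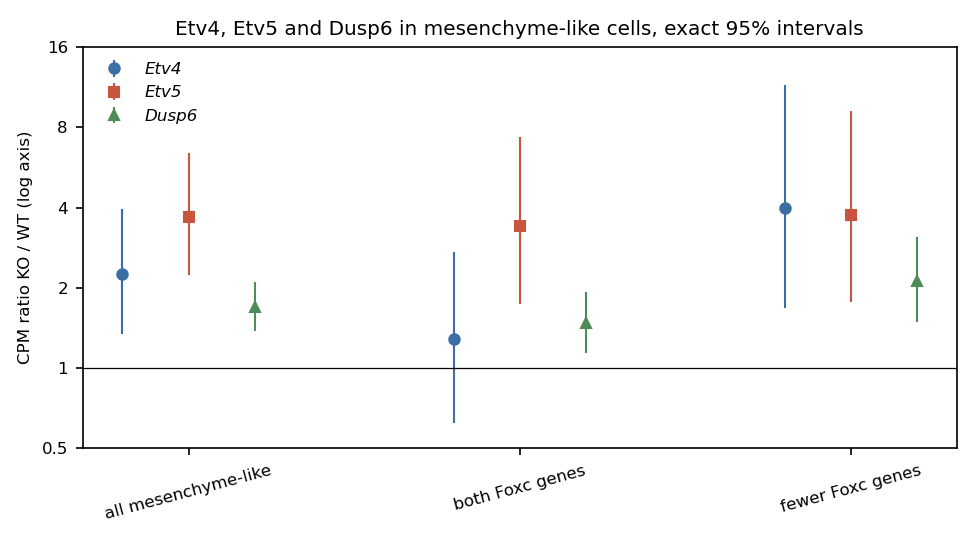
Ratio of CPM (KO over WT, log axis) of *Etv4*, *Etv5* and *Dusp6* in all mesenchyme-like cells and in cells split by Foxc genes carried, with exact 95% counting intervals. All 9 ratios were above 1, from 1.28 to 3.98, and the interval of *Etv4* included 1 in cells with both Foxc genes.

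Of the 12 other response and feedback genes listed, 11 reached 20 UMIs in mesenchyme-like cells, of which 3 were higher and 0 lower, with a median log2 ratio of 0.25. They were *Etv1*, the third factor of the *Etv4* and *Etv5* group (7.25 and 12.3 CPM, 1.69, 1.26 to 2.30), and the immediate early genes *Egr1* (0.878 and 3.15 CPM, 3.58, 1.65 to 8.89) and *Ier3* (0.659 and 1.90 CPM, 2.89, 1.14 to 8.68). *Egr1* also answers to cell dissociation. The immediate early gene *Ier2* had 89.3 and 106 CPM (1.19) and *Fos* 0 and 5 UMIs, and the part of such a response in the result was not tested. Upstream, 0 of 5 measured receptors and co-receptors and 1 of 17 adaptor and MAPK genes passed the fold, the latter being *Hras*, which was lower (72.2 and 44.8 CPM, 0.62, 0.55 to 0.70). Of the 9 heparan sulfate enzymes 1 was higher, *Ndst2* (7.36 and 11.1 CPM, 1.51, 1.12 to 2.05).

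The promoters of *Etv5* and *Dusp6* are shown because these genes moved together in mesenchyme-like cells, with that of *Spry2* as a member that did not. Windows are RefSeq sequences of build GRCm38.p6 from 250 bases before to 50 after a start site, written 5′ to 3′ on the gene's strand, and 6 of 10 members matched. Capitals mark GGAA or its complement TTCC, the core bound by ETS factors, searched on both strands, where the 2 words cannot overlap. They lie at chr16:22439521-22439820 and chr16:22438319-22438618 for *Etv5* (minus strand), chr10:99262981-99263280 for *Dusp6* (plus) and chr14:105896770-105897069 for *Spry2* (minus).
Etv5 first window: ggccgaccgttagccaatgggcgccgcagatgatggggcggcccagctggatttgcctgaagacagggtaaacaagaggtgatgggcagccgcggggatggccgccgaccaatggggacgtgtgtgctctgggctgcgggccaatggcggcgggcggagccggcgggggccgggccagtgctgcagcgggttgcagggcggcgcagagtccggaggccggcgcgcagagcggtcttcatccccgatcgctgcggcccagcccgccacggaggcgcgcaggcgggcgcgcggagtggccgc
Etv5 second window: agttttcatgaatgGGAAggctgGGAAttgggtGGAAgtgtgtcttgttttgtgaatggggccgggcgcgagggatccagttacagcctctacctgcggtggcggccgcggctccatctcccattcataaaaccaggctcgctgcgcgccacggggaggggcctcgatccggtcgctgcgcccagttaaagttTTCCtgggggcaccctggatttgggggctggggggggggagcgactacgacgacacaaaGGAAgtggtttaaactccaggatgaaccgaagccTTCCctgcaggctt
Dusp6 window: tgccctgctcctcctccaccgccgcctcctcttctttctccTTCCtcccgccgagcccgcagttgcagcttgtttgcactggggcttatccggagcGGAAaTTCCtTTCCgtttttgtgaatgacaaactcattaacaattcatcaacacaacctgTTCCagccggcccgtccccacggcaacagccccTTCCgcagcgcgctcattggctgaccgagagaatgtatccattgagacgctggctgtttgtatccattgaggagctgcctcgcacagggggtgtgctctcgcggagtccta
Spry2 window: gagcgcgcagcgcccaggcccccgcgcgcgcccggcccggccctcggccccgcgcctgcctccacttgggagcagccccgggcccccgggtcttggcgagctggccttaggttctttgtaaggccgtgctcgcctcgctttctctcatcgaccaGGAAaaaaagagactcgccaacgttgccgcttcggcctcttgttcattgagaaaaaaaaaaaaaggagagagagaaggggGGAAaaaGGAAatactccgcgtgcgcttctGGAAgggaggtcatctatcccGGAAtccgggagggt
The first *Etv5* window held 0 matches, the second *Etv5* window and *Dusp6* 6 each, and *Spry2* 5. Of 32851 windows, 96.0% held at least 1 match, 15.7% held 6 or more and 28.6% held 5 or more. The longer word CCGGAAG or CTTCCGG, present in 8.86% of all windows, holds the core and was in no window of the 6 members, and the core was marked after that was seen. Matches are letters in a window and were not tested for binding.

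*Spry2*, a Sprouty inhibitor like *Spry1* and *Spry4*, had a lower level in KO in each neural class. It fell past the fold in 4 of the 5 classes where it reached 20 UMIs. Retina-like cells had 23 UMIs (6.28 CPM) in WT and 22 UMIs (2.66 CPM) in KO, a ratio of 0.42 (0.23 to 0.79). Ventral optic vesicle-like cells had 29 and 20 UMIs, a ratio of 0.46 (0.25 to 0.84), and other neural cells 32 and 12 UMIs, a ratio of 0.34 (0.16 to 0.68). The direction was shared by RPE-like cells with 11 and 4 UMIs and forebrain-like cells with 12 and 5 UMIs, both under the minimum. Over the alternatives the ratio ranged from 0.38 to 0.54 in retina-like, 0.32 to 0.75 in ventral optic vesicle-like and 0.28 to 0.45 in other neural cells, and the call was lost in 1 of them for each class. In endothelium-like cells 19 and 12 UMIs gave 0.49 (0.22 to 1.07), an interval that includes 1.

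*Spry1* was called higher in KO in the ventral optic vesicle-like and other neural classes. Ventral optic vesicle-like cells had 22 UMIs (5.94 CPM) in WT and 56 UMIs (10.1 CPM) in KO, a ratio of 1.70 (1.02 to 2.92), and other neural cells 25 and 42 UMIs, a ratio of 1.52 (0.90 to 2.60). With 1 marker fewer at each gate the first ratio was 1.20, and with 1 marker more the second was 1.23. The call in other neural cells was also lost with per-cell means and with thinning. Over the alternatives its ratio ranged from 1.17 to 2.76. In the ventral optic vesicle-like class the ratios of *Spry1* and *Spry2* had intervals that did not overlap. RPE-like cells had 22 and 13 UMIs of *Spry1*, a ratio of 0.58 (0.27 to 1.21), whose interval includes 1 and which 4 alternatives took out of the call.

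*Dusp6* was called in opposite directions in different classes. In retina-like cells, where 8 members reached the minimum and 0 were higher and 2 lower (background 5.06% and 3.61% of 10989 genes), it had 51 UMIs (13.9 CPM) in WT and 74 UMIs (8.95 CPM) in KO, a ratio of 0.64 (0.44 to 0.94), which 4 alternatives took inside the fold, at up to 0.74, leaving out the richest cell of each library (0.669) among them. In RPE-like cells it was at 1.501 (0.86 to 2.66) on 23 and 35 UMIs, where 6 members were measured with 1 higher and 1 lower (background 4.47% and 3.07% of 11615 genes). In forebrain-like cells it was at 1.89 (0.96 to 3.86) on 15 and 25 UMIs. Both of these intervals include 1. The RPE-like call was lost in 6 alternatives, without the richest cell (1.498) among them. The forebrain-like call was lost in 3, and its ratio ran from 1.21 with 1 marker fewer to 6.61 with 1 marker more. In endothelium-like cells, where its level was highest, the ratio was 0.92 (0.73 to 1.17).

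Endothelium-like cells had 6 members with 20 UMIs, of which 2 were higher and 1 lower (background 6.05% and 6.8% of 9025 genes). *Spry4* was at 1.62 (0.81 to 3.41) and *Etv5* at 1.63 (0.74 to 3.89), and with *Spry2* all 3 intervals include 1. Macrophage-like cells had 2 measured members and 1 call, *Etv5* with 21 UMIs in WT and 3 in KO (0.41, 0.08 to 1.36), where 12% and 13.9% of 4381 genes were called higher and lower. Without the richest cell it fell under the minimum of UMIs. Erythroid-like cells (background 6.42% and 8.06%) and neural crest-like cells (13.9% and 8.99%) had no member at the minimum.

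**Figure D5:**
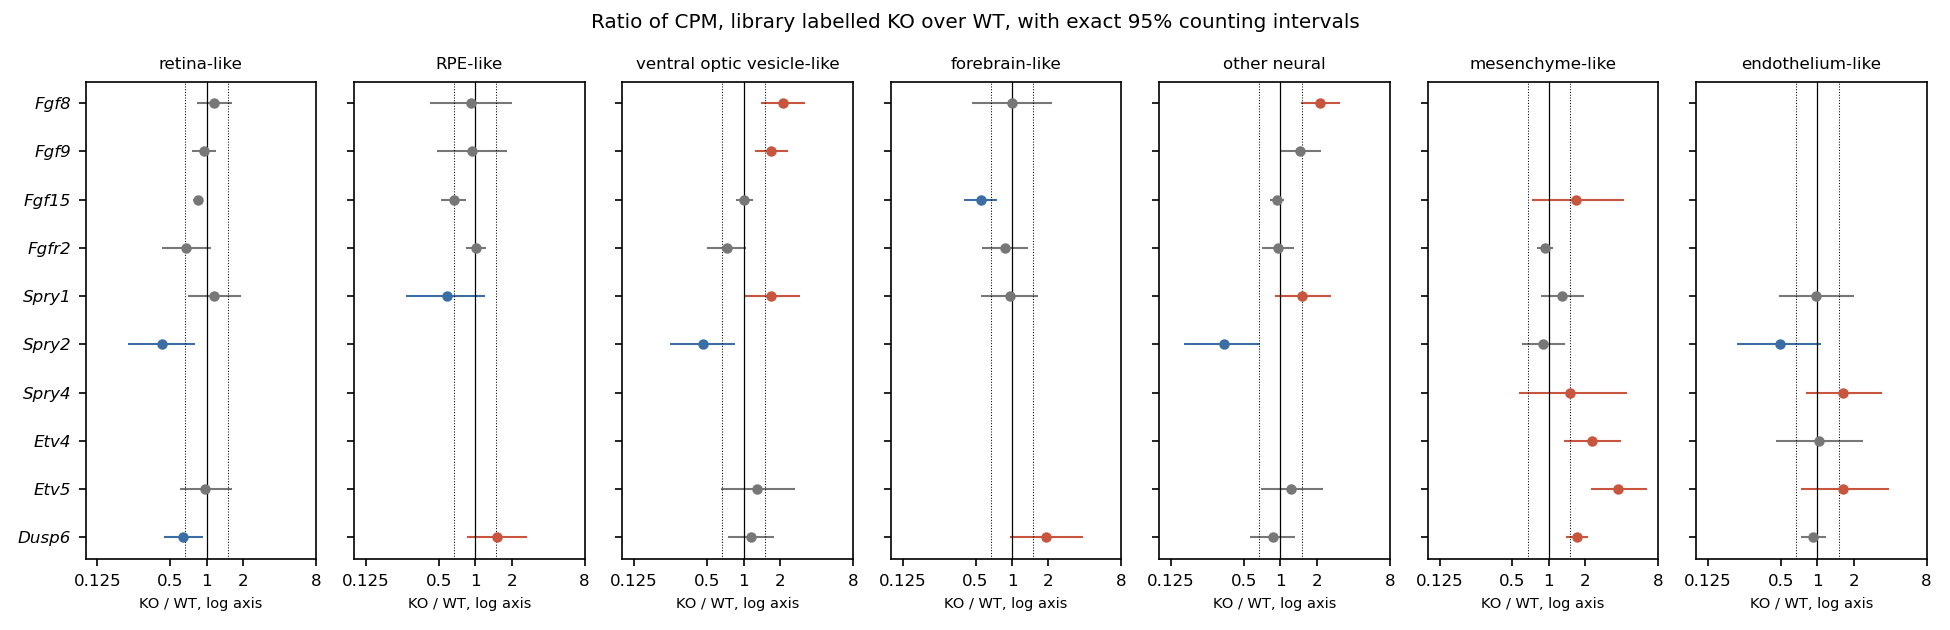
Ratio of CPM (KO over WT, log axis) for each member with at least 20 UMIs in 7 classes, with exact 95% counting intervals; red points were called higher, blue points lower and grey points neither, and dotted lines mark the fold of 1.5 in each direction. *Etv4*, *Etv5* and *Dusp6* stood to the right in mesenchyme-like cells, *Fgf8* in the ventral optic vesicle-like and other neural classes, and *Spry2* stood to the left in 4 classes.

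In LP-like cells the members other than *Fgfr2* had too few UMIs for a call. The gate itself used 7 lens markers, *Pax6*, *Six3*, *Maf* and *Pitx3* among them, which summed to 1140 CPM in WT and 750 CPM in KO LP-like cells, so that a cell with lower lens markers was less likely to be counted there. With a gate of 2 of *Pax6*, *Six3*, *Sox2*, *Foxe3* and *Prox1*, chosen after seeing the data, *Etv5* was at 21.6 CPM (14 UMIs) in WT and 7.22 CPM (3 UMIs) in KO, a ratio of 0.33 (0.06 to 1.20). *Dusp6* under that gate was at 20.02 and 12.03 CPM, a ratio of 0.60 (0.17 to 1.80). With cells passing several gates kept, the ratios were 0.84 (0.37 to 1.81) for *Etv5* and 0.99 (0.43 to 2.24) for *Dusp6*. All of these intervals include 1. The cells so kept are possible doublets. With them LP-like *Fgf15* was at 37.6 CPM (38 UMIs) in WT and 36.7 CPM (28 UMIs) in KO. Under the main gate it was at 5.54 CPM (3 UMIs) and 4.19 CPM (1 UMI). The part of neural RNA in the last 2 ratios was not tested.

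The other pathway lists held few calls in the neural classes. In ventral optic vesicle-like cells, where 5.1% of all genes were called higher and 4.28% lower, 3 of 17 adaptor and MAPK genes were higher and 0 lower. They were *Frs3* (3 and 17 UMIs, 3.78), *Frs2* (12 and 40 UMIs, 2.22), the docking protein of FGF receptors, and *Gab1* (22 and 50 UMIs, 1.52, 0.90 to 2.63). Of the response list, *Spred3*, an inhibitor of the cascade, was higher in that class (14 and 49 UMIs, 2.34, 1.27 to 4.58) as 1 of 8 measured genes, and of the co-receptors *Flrt1* (11 and 42 UMIs, 2.55, 1.29 to 5.49) as 1 of 6.

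In retina-like cells (5.06% and 3.61% of all genes) 1 of 9 response genes was higher, *Spred2* (12.8 and 19.5 CPM, 1.52, 1.09 to 2.15), with 1 of 17 adaptors, *Gab1* (1.63, 1.01 to 2.74), and 0 of 9 heparan sulfate enzymes and 0 of 5 receptors. RPE-like cells (4.47% and 3.07%) had 0 of 17 adaptors called, 1 of 9 response genes lower (*Dusp4*, 0.49, 0.21 to 1.10) and 1 of 6 co-receptors higher (*Flrt1*, 2.79, 1.05 to 8.66). In forebrain-like cells (6.58% and 4.65%) 1 of 16 adaptors, *Sos2* (1.51, 0.79 to 2.96), and 1 of 9 heparan sulfate enzymes, *Ext2* (1.54, 1.06 to 2.27), were higher, and 0 of 5 response genes and 0 of 4 receptors were called. In the other neural class (4.75% and 3.65%) *Fgfr3* was called lower (0.45, 0.18 to 1.06), *Frs2* (1.62, 0.96 to 2.79) and *Ndst2* (2.31, 1.31 to 4.23) were called higher, and 0 of 9 response genes was called.

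The ectoderm classes were thinly counted, and calls were common among all genes, at 12.9% higher and 16% lower in LP-like and 11.3% and 11.8% in SE-like cells. The part of thin counting in these shares was not tested. LP-like cells had 1 of 4 response genes, 3 of 4 heparan sulfate enzymes and 1 of 11 adaptors called higher and 3 adaptors called lower. The intervals of the 3 enzymes *Hs2st1* (0.82 to 4.52), *Hs6st1* (0.73 to 3.83) and *Ugdh* (0.74 to 3.53) all include 1. SE-like cells had 1 of 2 response genes and 1 of 11 adaptors called higher, and 3 of 4 heparan sulfate enzymes, 2 adaptors and 1 of 2 receptors and co-receptors called lower. There the intervals of *Nras* (1.92, 1.17 to 3.22) and *Hras* (0.58, 0.33 to 0.99) exclude 1, and those of the other called genes of these lists include it.

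The members lie on GRCm38 (GENCODE vM21) at chr19:45736798-45742915 (*Fgf8*, minus strand), chr14:58070547-58112720 (*Fgf9*, plus), chr7:144896531-144900953 (*Fgf15*, plus), chr7:130162451-133123350 (*Fgfr2*, minus), chr3:37639947-37644598 (*Spry1*, plus), chr14:105891947-105896819 (*Spry2*, minus), chr11:101769742-101785371 (*Etv4*, minus), chr16:22381309-22439719 (*Etv5*, minus) and chr10:99263231-99267489 (*Dusp6*, plus), with *Spry4* on chromosome 18. All are annotated as protein coding. In this annotation *Fgfr2* spans 2960900 bases and its exons overlap those of *Ctbp2* on the same strand. The gene annotation behind the counts may differ, so whether UMIs of these 2 genes are fully separable is not known. Exons of *Fgf15* overlap 2 antisense genes, *Gm26793* and *Gm39119*, and those of *Spry1* overlap *Gm42922* on the opposite strand, and whether counting used strand is not given in the sources used here.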

How the data were processed

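Single cells of 1 wild-type and 1 *Mab21l1*-null embryo were profiled with 10x 3′ libraries. UMI counts were made by the authors with Cell Ranger against mm10 (GRCm38), joined through its aggr program, which may even out read depth by dropping reads, and deposited as unscaled whole numbers for 1745 (WT) and 2458 (KO) barcodes. Kept were cells in which 1500 to 8000 genes were found and mitochondrial UMIs made up no more than 5%, giving 41880035 and 52430844 UMIs (WT and KO), and a class level is set by its UMI sum.

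Cells were gated by the number of listed markers with at least 1 UMI: 4 of 7 for surface ectoderm, 3 of 7 for lens placode within it, 5 of 12 for mesenchyme, 4 of 7 for endothelium, 5 of 7 for erythroid, 3 of 6 for neural crest, 4 of 6 for macrophage and 3 of 9 for neural epithelium. Neural cells were divided by 4 of 5 retina markers (1 of them required), 3 of 6 RPE markers, 3 of 7 forebrain markers and 2 of 4 ventral markers. Gate limits were set after seeing how many markers cells carried. Cells passing 2 or more of 7 broad gates (106 and 122) were left out as possible doublets, and no doublet caller was run. UMIs were summed per class and scaled to CPM (per 1000000 UMIs), with exact 95% Poisson, conditional binomial (ratios) and Clopper-Pearson (shares) intervals, in Python 3.11.15 with scipy 1.17.1 and numpy 2.4.6. The floor for a count of 0 was 3 counts. The intervals and ratios were run on simulated Poisson counts, the model that the intervals assume. Clumping of UMIs in single cells was not simulated, so this checks the computation only.

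All 10 members are named, with up to 4 genes past the fold from each pathway list, ligands with 20 UMIs in a class, the 3 genes most like 6 of the members, and *Mab21l1*. Members and lists were chosen with earlier results of these data known. Class-to-class ratios and subsets by *Vax2* and Foxc genes were chosen after seeing the data. Some genes that these rules name are not reported here. Alternatives were all barcodes, other gates, per-cell means, another scaling, thinning, other limits, and leaving out the richest cell.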

Additional observations from a re-analysis of the deposited data

Results flagged for a closer look

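Several members passed the fold in opposite directions in different classes of the same comparison, and the difference between classes was not tested in any of them. *Etv5* had a ratio (KO over WT) of 3.69 in mesenchyme-like and 1.63 in endothelium-like cells against 0.41 in macrophage-like cells, the last on 24 UMIs. *Dusp6* had a ratio of 1.70 in mesenchyme-like, 1.501 in RPE-like and 1.89 in forebrain-like cells against 0.64 in retina-like cells, and the calls in the last 3 classes were lost in 6, 3 and 4 alternatives. *Spry1* had 1.70 in ventral optic vesicle-like and 1.52 in other neural cells against 0.58 in RPE-like cells. *Fgf15* had 1.68 in mesenchyme-like cells, on 29 UMIs, against 0.55 in forebrain-like cells. The counting intervals of the opposed ratios did not overlap for *Dusp6* in mesenchyme-like against retina-like cells (1.38 to 2.11 and 0.44 to 0.94). For *Dusp6* in forebrain-like cells (0.96 to 3.86) the interval also lay, narrowly, above that of retina-like cells. Those of *Etv5* in mesenchyme-like against macrophage-like cells (2.24 to 6.40 and 0.08 to 1.36) did not overlap either.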

How the results depend on the processing

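*Etv4*, *Etv5* and *Dusp6* in mesenchyme-like cells and *Fgf8* in other neural cells stayed past the fold of 1.5 under each alternative in gating, filtering, scaling and thinning, with ratios of 2.25 to 4.77, 3.57 to 3.95, 1.52 to 1.76 and 1.79 to 2.74, the richest cell left out included. Counts of members past the fold (both directions) that moved by more than 1.5 times were as follows. In mesenchyme-like cells 5 became 3 with 1 marker more, with thinning and with a minimum of 50 UMIs, and 2 at a fold of 2. In ventral optic vesicle-like cells 4 became 2 with 1 marker more and at a fold of 2. In retina-like cells 2 became 1 with 1 marker fewer, with thinning, at a fold of 2 and at 50 UMIs. In RPE-like cells 2 became 1 with 1 marker more, all barcodes, thinning, per-cell means, 50 UMIs and without the richest cell, and 0 at a fold of 2. In forebrain-like cells 2 became 1 with 1 marker more and at 50 UMIs, and 0 with thinning and at a fold of 2. In endothelium-like cells 3 became 0 with thinning and at 50 UMIs, and 1 at a fold of 2. In macrophage-like cells 1 became 2 with 1 marker more and 0 with thinning and at 50 UMIs. In LP-like cells 0 became 1 with thinning, in SE-like cells 0 became 1 with all barcodes, and in neural crest-like cells 0 became 1 with cells passing several gates kept. A higher minimum or fold lowers a count by construction, and for the others the cause was not tested. The share of all genes called was computed under the main setting only. Whether a changed count stands out from all genes under its own setting was therefore not tested. The class levels in CPM of members with the minimum of UMIs also depended on the gate. With 1 marker fewer, 32 levels left their counting interval of the main setting and 74 stayed inside. With 1 marker more, 30 left it and 76 stayed. With all barcodes 106 stayed, and with per-cell means 8 left it and 98 stayed.

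The log2 ratio changed sign for 3 calls, namely *Etv5* in endothelium-like cells with thinning (-0.81), *Spry1* in RPE-like cells with thinning (0.59) and *Fgf15* in mesenchyme-like cells with cells passing several gates kept (-0.42). The lens gate of 5 markers, the richest cell left out and cells passing several gates kept were added after seeing the data. No paired analysis was possible because each genotype has 1 library. Depth limits the smallest classes most: over the LP-like, SE-like, neural crest-like and macrophage-like cells 3 counts are 4.89 to 7.87 CPM in WT and 8.20 to 13.9 CPM in KO, against 0.329 and 0.248 CPM in mesenchyme-like cells.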

Other observations

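Cells outside the classes carried the members as well. Cells passing 2 or more gates had 70.8 CPM of *Fgf15* in WT (106 cells) and 64.5 CPM in KO (122 cells), and 25.0 and 28.1 CPM of *Fgfr2*. *Etv5* in these cells was at 3.25 CPM (13 UMIs) in WT and 8.63 CPM (36 UMIs) in KO. Cells passing no gate, which were shallow at medians of 10494 and 9184 UMIs, had 4.74 CPM of *Fgf9* (4 UMIs) in 69 WT cells and 22.2 CPM (29 UMIs) in 119 KO cells, and 5.93 CPM (5 UMIs) and 21.4 CPM (28 UMIs) of *Dusp6*.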
